A study of Mus musculus with 65 samples.

Results

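The nuclear-encoded subunits of the respiratory chain were followed in 65 single outer hair cells of the mouse cochlea at postnatal day 10. A row of the count table was taken as a member when its symbol began as those of the subunits of complexes I to V do. The beginnings were Nduf with a, b, c, s or v and then a digit, Ndufab1, Sdha to Sdhd, Uqcr, Cox4 to Cox8, and Atp5. That pattern matched 102 of the 55292 rows, and 89 were left once 13 rows with the ending -ps, which marks pseudogenes, were dropped. They comprised 39 genes of complex I, 4 of complex II, 8 of complex III, 21 of complex IV and 17 of complex V. Ndufa4 and its paralog Ndufa4l2 were placed with complex IV, where the protein resides. Cyc1, the cytochrome c1 subunit of complex III, does not begin with Uqcr and was kept apart with the electron carriers. Among the 89, the 4 members Cox6c2, Ndufa11b, Ndufb4c and Ndufs6b are annotated as processed pseudogenes although their symbols do not say so.

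All cells came from mice with 1 Slc26a5 FlpO allele, which places Flp recombinase under the gene of the outer hair cell motor protein prestin, and a Flp-dependent nuclear H2B-EGFP reporter at Rosa26. Cells were picked one by one after enzymatic digestion and turned into full-length cDNA without molecular identifiers. The protocol text given alike for all samples speaks of inner hair cells and induced outer hair cells, whereas titles and design name outer hair cells, which was followed here. The 48 WT cells carried these alleles alone. The 17 cells labelled CKO also carried 1 Atoh1 Cre allele and floxed copies of Casz1, a zinc finger transcription factor gene, on both chromosomes. Cre and loss of Casz1 can therefore not be told apart, and the labels name no animal. Each genotype was treated as 1 sample, so no test was run, and the spread over cells is given as a description.

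Complex I takes electrons from NADH and complex II from succinate. Both pass them through ubiquinone to complex III, and cytochrome c carries them on to complex IV, which reduces oxygen. The proton gradient built on the way drives the ATP synthase, complex V. Most subunits are encoded in the nucleus, made in the cytosol and imported, and several subunits of complex IV exist as a widely expressed form and a form known from heart and skeletal muscle, lung or testis. Outer hair cells depend on mitochondrial ATP and are known for their sensitivity to agents that injure mitochondria.

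Totals ran from 7458126 to 17107710 counts in WT cells and from 8239671 to 15320549 in cells labelled CKO. All 9 outer hair cell markers were measured, Slc26a5 and Ocm with a count in every cell. The 8 supporting cell markers summed to a median of 25.1 counts per 1000000 counts (CPM) per WT cell and 0.106 CPM per cell labelled CKO. The sum reached 402 CPM in a WT cell and 183 CPM in a cell labelled CKO. Sox2, Prox1 and Otoa had no count in any cell labelled CKO and at most 0.290 CPM over the WT cells. Fgfr3 had counts in 30 WT and 6 cells labelled CKO. Of 5 inner hair cell markers, Calb2 was counted in every cell and Otof in 42 WT and 16 cells labelled CKO. Slc17a8, Tbx2 and Slc7a14 had counts in 14, 1 and 4 WT cells and in 6, 2 and 1 cells labelled CKO. Casz1 itself stood at 53.3 CPM summed over the WT cells and 46.2 CPM over the cells labelled CKO. Its whole-gene count therefore did not separate the genotypes, and which part of the gene the floxed alleles remove is not given in the sources used here. Of the WT cells, 37 had the Y-linked pattern (at least 10 counts over Ddx3y, Uty, Kdm5d and Eif2s3y and fewer than 10 of Xist) and 9 the reverse, the Xist pattern, while 15 of the 17 cells labelled CKO had the Xist pattern and none the Y-linked one, so genotype and sex were largely confounded. WT cells also differed by their number in the labels. Numbers 1 to 11, 12 to 45 and 46 to 48 are given separately below; these runs were drawn in an earlier account of these data from a mitochondrially encoded gene, and the labels name no batch.

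Together the members took 4.06% of all counts in WT cells and 3.74% in cells labelled CKO. In single WT cells their sum ran from 28325 to 65361 CPM with a median of 41050, and in single cells labelled CKO from 30110 to 49082 CPM with a median of 35137. The ranges overlapped almost completely, and a WT cell was higher than a cell labelled CKO in 64.3% of the 816 possible pairs. The 3 highest cells, WT 23, 24 and 22, also had few genes detected, at 5426, 5828 and 5804. Across all 65 cells the member sum had a Spearman correlation of -0.40 with the number of genes detected and -0.31 with total counts (n = 65 cells, which enter both measures through the same library). With total counts it was 0.56 in WT cells 1 to 11 (n = 11), -0.63 in cells 12 to 45 (n = 34) and -0.19 in cells labelled CKO (n = 17), so the sign differed between runs. With genes detected it was -0.28, -0.70 and -0.12 in the same groups. The part of genes detected in the member sum was not tested.

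Of the 89 members, 79 were measured, which here means at least 5 CPM in the higher genotype. Nothing was counted in any cell for 5 members, while 67 had a count in every one of the 65 cells. A cell held counts of 75 to 82 members. Most members thus sat far above the limit of detection in each cell.

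Cells labelled CKO had slightly lower levels of most members. Summed over cells, 60 of the 79 measured members were lower than in WT cells and 19 were higher. Among all 10842 measured genes, 49.6% were lower and 50.4% higher. The median log2 ratio of CKO over WT was -0.11 over the members (order-statistic interval over members -0.20 to -0.07) and 0.01 over all measured genes. That interval takes the members as separate draws, although all share the same cells. It describes the spread over members and not the uncertainty of a genotype difference. Few members were far apart. Of all measured genes, 24.7% were at least 1.5-fold higher in cells labelled CKO and 23.3% at least 1.5-fold lower, while 3 members (Ndufb4c, Sdhc and Ndufa9) were past that fold upward and 1 (Ndufb2) downward. When the same side was also required in 65% of cell pairs, the background was 4.29% upward and 4.34% downward, and only the pseudogene Ndufb4c was left, upward. A direction without a fold was more frequent among the members. In 13 of the 79 members a WT cell was higher in at least 65% of pairs, against 5.34% of all measured genes, and in 2 members a cell labelled CKO was, against 5.29%. Since each gene's pair share comes from the same 816 pairs of cells, these counts share their cells and give no independent support to one another. The backgrounds were not matched to the members for level or detection. The median coefficient of variation over cells was 0.41 for the measured members and 1.73 for all measured genes. Its part in the shares past 1.5-fold and past 65% of pairs was not tested.

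The direction depended on which WT cells were compared. Against WT cells 1 to 11, 54 of 78 members were lower in cells labelled CKO, where 47.7% of all measured genes were. With 1.5-fold required, 4 members were higher (background 31.4%) and 1 lower (26.4%). Against WT cells 12 to 45, 60 of 79 were lower, with a background of 49.9%, and past 1.5-fold 1 was higher (26%) and 3 were lower (25.1%). Against the 3 WT cells numbered 46 to 48 only 21 of 78 were lower, with a background of 45.6%, and the median log2 ratio was 0.20. Past 1.5-fold 10 were then higher (40.1%) and 3 lower (29.3%). In cells with the Xist pattern only, 9 WT and 15 labelled CKO, 62 of 79 members were lower with a background of 47.7%, and past 1.5-fold 5 were higher (33%) and 5 lower (27.3%). The member sum was 42287 CPM in these WT cells and 37281 CPM in these cells labelled CKO, and 33519 CPM in WT cells 46 to 48. All of these comparisons share the cells labelled CKO.

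**Figure D1:**
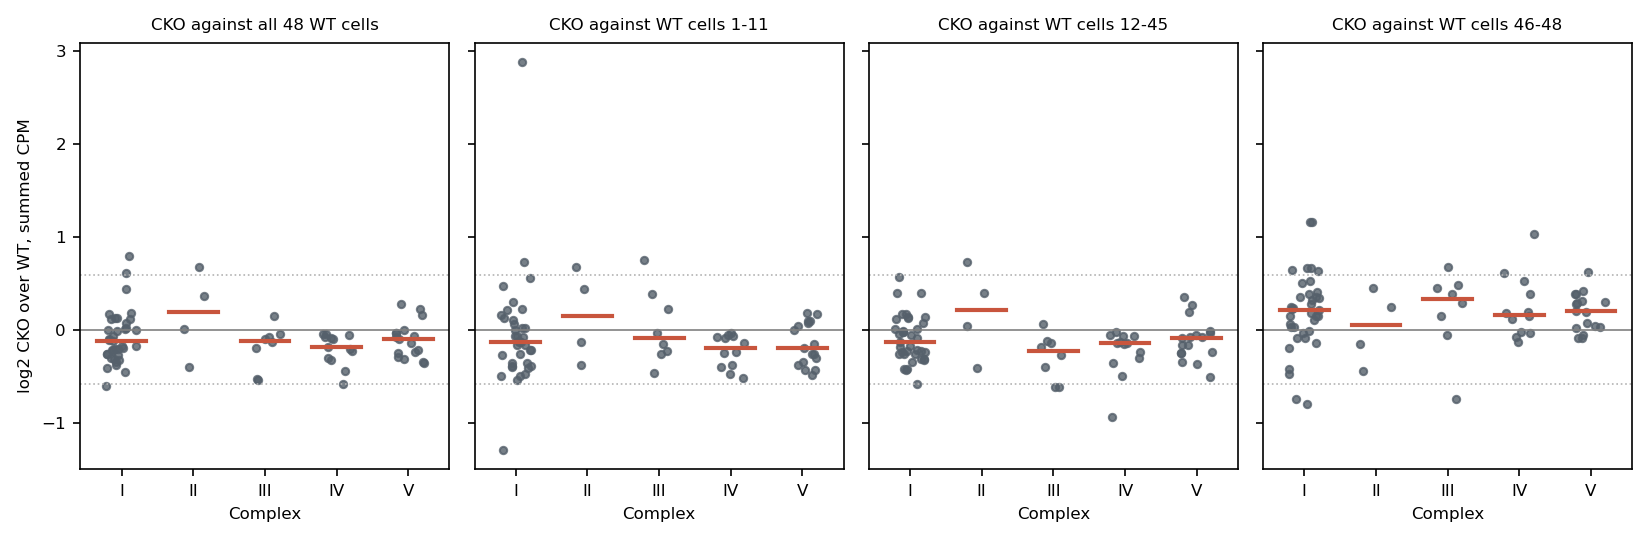
log2 ratio of CKO over WT for each measured member (points) by complex, from counts summed over cells, with red bars at the median of the complex and dotted lines at 1.5-fold. Against all WT cells the medians of complexes I, III, IV and V lie below 0 (-0.12, -0.12, -0.19 and -0.10) and that of complex II above it (0.19); against WT cells 46 to 48 all 5 medians lie above 0.

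**Figure D2:**
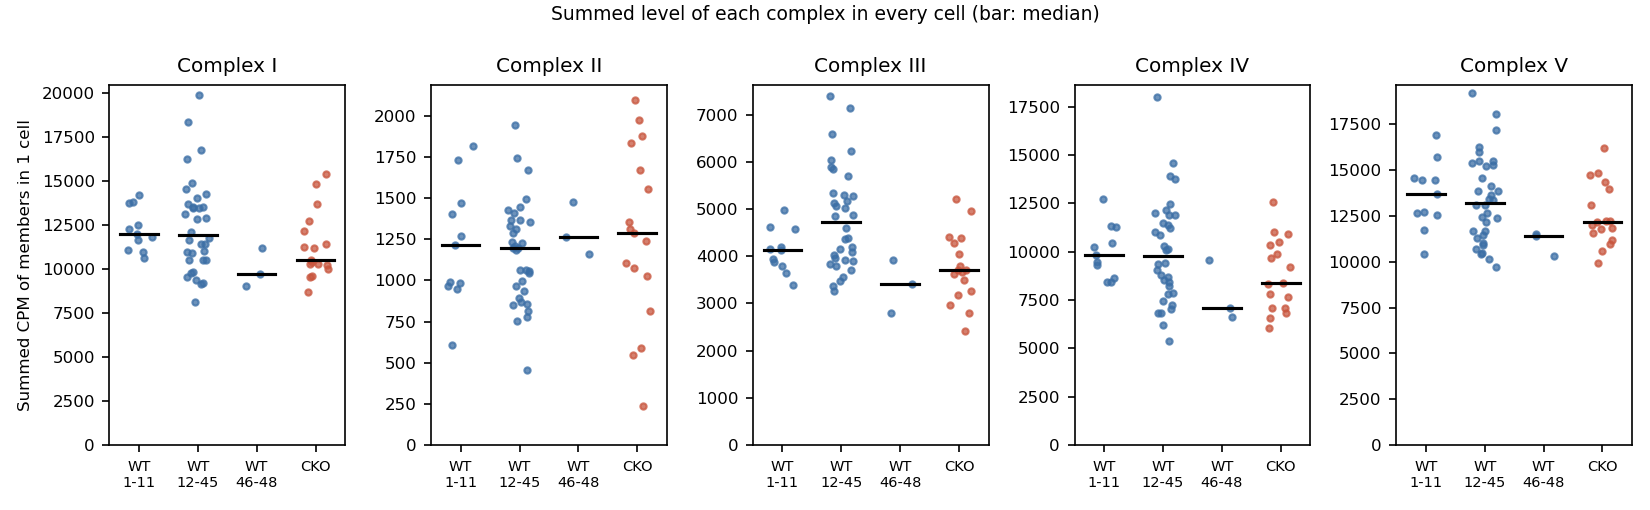
Summed CPM of the members of each complex in every cell, for the 3 runs of WT cells and the cells labelled CKO; each point is 1 cell and the bar is the median. The groups overlap in every complex. Of the 3 WT cells numbered 46 to 48, 2 lie below the median of cells labelled CKO in complexes I, III and IV and all 3 in complex V.

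Complex I took 29.7% of member counts in WT cells and 29.8% in cells labelled CKO. Its members summed to 12044 and 11161 CPM. The highest levels per kb of transcript over all cells were those of 3 accessory subunits, with Ndufa1 at 2405 CPM per kb, Ndufa5 at 744 and Ndufa7 at 658. Ndufa7 came only 20th in the complex when the union of all its exons was taken as the length. Ndufa1, an X-linked gene whose small membrane protein is needed to assemble the complex, ran from 525 to 2432 CPM in WT cells (median 1038) and from 540 to 1565 CPM in cells labelled CKO (median 802). Its log2 ratio was -0.38, with a WT cell higher in 72.1% of pairs. Against WT cells 46 to 48 alone it was higher in cells labelled CKO, since their summed level was 653 CPM. Ndufa5 was close to equal in the genotypes, at 653 and 646 CPM, and Ndufa7 stood at 368 and 290 CPM.

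The 7 core subunits, which hold the flavin and the iron-sulfur clusters and carry the electrons, are given apart from the 30 measured accessory subunits; the difference between them was not tested. Core members were lower in 3 of 7 cases with a median log2 ratio of 0.07. Accessory members were lower in 22 of 30 cases with a median of -0.17, both against all WT cells. The medians of core and accessory members were 0.11 and -0.16 against WT cells 1 to 11. They were -0.02 and -0.15 against cells 12 to 45 and 0.22 and 0.20 against cells 46 to 48. Core transcripts are all at least 983 bases long, while 15 measured members of complex I are under 800 bases. The part of length was not tested. Against all WT cells the core subunit Ndufs8, one of the iron-sulfur proteins, was the lowest of the 7 at -0.45 on the log2 scale. Ndufs1, the largest subunit, was the highest at 0.18. Both names were picked after their values were seen. Ndufa9, an accessory subunit at the joint between the matrix and membrane arms, was higher in cells labelled CKO, at 209 against 137 CPM and a log2 ratio of 0.62. It ran from 0 to 493 CPM in WT cells and from 0.0777 to 457 CPM in cells labelled CKO, and 4 WT cells had no count of it. A cell labelled CKO was higher in 62.5% of pairs, so the ranges overlapped. Ndufab1, the mitochondrial acyl carrier protein, was the other member besides Ndufb4c with a cell labelled CKO higher in at least 65% of pairs, at 65.2% and a log2 ratio of 0.44.

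Ndufb4c and Ndufb2 were the remaining members of complex I past 1.5-fold. Ndufb4c, the processed copy of Ndufb4 on chromosome 15, stood at 5.51 CPM in cells labelled CKO and 3.18 CPM in WT cells, a log2 ratio of 0.79 (counting interval 0.68 to 0.90). Within WT it was at 0.745 CPM in cells 1 to 11, 4.19 CPM in cells 12 to 45 and 3.83 CPM in cells 46 to 48. The spread between WT runs was therefore larger than that between genotypes, and Ndufb4, its parent, was level at 478 and 480 CPM. Ndufb2, a small membrane subunit, stood at 40.7 CPM in WT and 26.8 CPM in cells labelled CKO, a log2 ratio of -0.60, while its level in WT cells 46 to 48 was 25.6 CPM. Exons of Ndufb2 overlap those of another gene, so its reads could not be assigned with certainty.

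Complex II, the succinate dehydrogenase, took 2.97% of member counts in WT cells and 3.42% in cells labelled CKO. Against all WT cells it was the only complex with a higher sum in cells labelled CKO, at 1281 against 1206 CPM. In WT cells 46 to 48 its sum was 1300 CPM, so the log2 ratio of CKO over these 3 cells was -0.02. Its sum ran from 457 to 1945 CPM in WT cells and from 238 to 2098 CPM in cells labelled CKO, and a cell labelled CKO was higher in 56.7% of pairs. All 4 genes have counts in nearly every cell. Sdhb, the iron-sulfur subunit, had the highest level at 357 CPM per kb, followed by the membrane anchor Sdhd at 276 and the flavoprotein Sdha at 92.8. With the exon union as length Sdhd came first, at 276, and Sdhb second, at 182. The subunits did not move together. Sdhb ran from 155 to 747 CPM in WT cells (median 447) and from 71.6 to 564 CPM in cells labelled CKO (median 324), a log2 ratio of -0.41 with a WT cell higher in 69.4% of pairs. Sdha was higher in cells labelled CKO than in all WT cells, at 322 against 250 CPM, but stood at 357 CPM in WT cells 46 to 48. Sdhd was level, at 341 and 339 CPM. Sdhc, the other membrane anchor, had a median of 325 CPM in cells labelled CKO and 156 CPM in WT cells. Its log2 ratio of summed levels was 0.67, with a range of 0 to 535 CPM in WT and 12.8 to 674 CPM in cells labelled CKO. Above the highest WT cell lay 3 of the 17 cells labelled CKO, and the others overlapped with WT cells.

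Complex III took 11.01% of member counts in WT cells and 10.0% in cells labelled CKO, and against all WT cells it showed the largest genotype difference of the 5 sums. Its members summed to 4468 CPM in WT and 3740 CPM in cells labelled CKO, a log2 ratio of -0.26, with a WT cell higher in 73.4% of pairs. Against WT cells 1 to 11 the ratio of complex IV was larger, at -0.21 beside -0.15 for complex III. Against cells 46 to 48 complex III was at 0.14, below complexes I, IV and V at 0.16, 0.17 and 0.18. In WT cells 46 to 48 the sum was 3388 CPM. Per kb the leading members were 3 small subunits, with Uqcr11 at 2715 CPM, Uqcrh, the acidic hinge protein, at 1386 and Uqcr10 at 1023. Uqcr11 carried much of the difference. It ran from 743 to 2365 CPM in WT cells (median 1353) and from 562 to 1264 CPM in cells labelled CKO (median 902). All 17 cells labelled CKO were below the WT median, and 26 of the 48 WT cells were above the highest cell labelled CKO. Summed levels were 1318 and 906 CPM, a log2 ratio of -0.54 that falls just short of 1.5-fold, and a WT cell was higher in 87.9% of pairs, the highest share among the members. The share was 86.1% against WT cells 1 to 11, 91.3% against cells 12 to 45 and 54.9% against cells 46 to 48, whose summed level was 943 CPM.

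Uqcrc1, a core protein of the matrix side, had nearly the same log2 ratio of -0.53, at 475 and 329 CPM, but a wider spread over WT cells, from 0.0879 to 1667 CPM. A WT cell was higher in 66.3% of pairs. For this gene WT cells 46 to 48 were as high as the others, at 553 CPM. The partner core protein Uqcrc2, named after its values were seen, stood at 186 and 206 CPM. Uqcrh and Uqcr10 were near the median of all members, with log2 ratios of -0.13 and -0.19.

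Complex IV, cytochrome c oxidase, took 23.9% of member counts in WT cells and 23.3% in cells labelled CKO, with sums of 9679 and 8710 CPM. All 13 measured members were lower in cells labelled CKO, with a median log2 ratio of -0.19. One of them, Cox6b2, was counted in few cells; the 12 widely expressed members ran from -0.44 to -0.04 on the log2 scale. Against WT cells 46 to 48, 8 of these 12 were higher in cells labelled CKO. The highest levels per kb were those of Cox8a at 2783 CPM, the highest among all members, Cox4i1 at 1839 and Cox6a1 at 1829. Cox8a ran from 790 to 2667 CPM in WT cells and from 757 to 2080 CPM in cells labelled CKO, with medians of 1508 and 1471. Cox4i1, which binds regulatory nucleotides, had medians of 1469 and 1285 CPM. Those of Cox6a1 were 1024 and 1019 CPM. Ndufa4, a further subunit of the complex, stood at 1171 and 951 CPM in sum, with a WT cell higher in 65.9% of pairs.

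The subunits with more than 1 isoform were nearly all present as the widely expressed form. Cox4i2, known from lung, Cox6a2 and Cox8b, known from heart and skeletal muscle, Cox7b2, and the hypoxia-linked Ndufa4l2 had no count in any of the 65 cells. A count of 0 allows up to 0.00548 CPM over the WT cells and 0.0150 CPM over the cells labelled CKO (3 counts of each total). These bounds cover counting error only, since the reads carry no molecular identifiers. By number of cells, 0 of 65 over both genotypes allows the gene in up to 4.6% of cells, and 0 of 17 in up to 17.6%. These limits take the cells as independent draws, although the labels name no animal. Cox8c, a testis form, had 306 counts in WT cell 38 and none elsewhere. Cox6b2, another testis form, had counts in 6 WT and 3 cells labelled CKO, at most 75.7 and 33.1 CPM in a cell. Cox7a1, a muscle form, had counts in 10 WT and 2 cells labelled CKO, at most 44.7 and 21.8 CPM. These cells were few and the levels low beside the partner. Per kb over all cells, Cox6b1 was 174-fold above Cox6b2, and Cox7a2 was 104-fold above Cox7a1. The related Cox7a2l, a factor of supercomplex assembly, stood at 208 CPM per kb, and Cox7b at 276. The 7 skeletal muscle markers summed to between 0 and 250 CPM in WT cells and between 0 and 109.9 CPM in cells labelled CKO, and Myh4 had no count in any cell. In the 10 cells with at least 10 counts of Cox7a1, that sum ran from 0 to 96.0 CPM, and in 3 of these cells it was 0; the markers' part in the Cox7a1 counts was not tested.

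The 200 bases around the start sites of Cox8a and of its uncounted paralog Cox8b are given here because the paralogs lie at opposite ends of the range, and those of Cox6a1 and Uqcr11 because they are among the highest members of complexes IV and III. Each window spans 170 bases before to 30 after the start in the RefSeq table for GRCm38.p6, printed 5′ to 3′ on the gene's strand; all 4 genes are on the minus strand. Capitals mark matches on either strand to 4 motifs. The motif of ETS factors such as GABP was searched as CCGGAAG, the core of that of the factor NRF1 as GCATGCGC, that of YY1 as AAGATGGC and the letters of a TATA box as TATAAA. The windows are chr19:7217587-7217786 for Cox8a, chr7:140900417-140900616 for Cox8b, chr5:115348929-115349128 for Cox6a1 and chr10:80406792-80406991 for Uqcr11.
Cox8a: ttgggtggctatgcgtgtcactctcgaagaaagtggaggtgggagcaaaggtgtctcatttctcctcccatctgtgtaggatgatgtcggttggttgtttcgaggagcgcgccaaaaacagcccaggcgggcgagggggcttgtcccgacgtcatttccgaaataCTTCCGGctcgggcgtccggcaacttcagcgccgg
Cox8b: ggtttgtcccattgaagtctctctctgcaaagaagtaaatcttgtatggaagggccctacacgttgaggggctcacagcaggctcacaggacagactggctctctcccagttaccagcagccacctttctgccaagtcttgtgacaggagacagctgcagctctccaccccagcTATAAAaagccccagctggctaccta
Cox6a1: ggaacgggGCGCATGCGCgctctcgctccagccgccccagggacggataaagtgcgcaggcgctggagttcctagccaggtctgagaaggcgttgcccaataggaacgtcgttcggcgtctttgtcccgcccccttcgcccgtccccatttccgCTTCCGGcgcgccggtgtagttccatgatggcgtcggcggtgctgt
Uqcr11: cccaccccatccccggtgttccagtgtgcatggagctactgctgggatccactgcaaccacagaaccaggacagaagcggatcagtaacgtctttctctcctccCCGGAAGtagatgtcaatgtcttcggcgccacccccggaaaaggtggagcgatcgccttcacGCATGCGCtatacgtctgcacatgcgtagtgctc
Cox8a, Cox6a1 and Uqcr11 each hold an ETS match in the window, and Cox6a1 and Uqcr11 also an NRF1 match. In the window of Cox8b only the letters TATAAA were found, and they begin 4 bases after the annotated start. RefSeq promoters of 300 bases were found for 69 of the 89 members. The ETS letters were in 17 of the 69 (24.6%), against 22.3% of the promoters of measured genes and 9.93% of all promoters. The NRF1 letters were in 10 (14.5%), against 6.67% and 3.05%. Those of YY1 were also in 10 (14.5%), against 5.97% and 3.19%. The letters TATAAA were in 8 (11.6%), against 8.0% and 15.7%. These are matches of letters and show no binding. Ndufa1, Ndufa4 and Atp5b, at 2405, 1824 and 1343 CPM per kb, had no match to any of the 4 motifs in their promoters. A link between matches and level was not tested.

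Complex V, the ATP synthase, took the largest part of member counts, 32.5% in WT cells and 33.4% in cells labelled CKO, with sums of 13167 and 12511 CPM. Of its 17 members 14 were lower in cells labelled CKO, with a median log2 ratio of -0.10. Per kb, Atp5j, which encodes coupling factor 6 of the peripheral stalk, led at 1532 CPM, although it came 6th with the exon union as length. Atp5b, the catalytic beta subunit, followed at 1343 and the stalk subunit Atp5h at 1277. Atp5j ran from 774 to 2188 CPM in WT cells (median 1320) and from 677 to 1520 CPM in cells labelled CKO (median 1073), and 16 of the 17 cells labelled CKO were below the WT median. Its log2 ratio was -0.31, with a WT cell higher in 73.8% of pairs. Atp5b went the other way. It ran from 803 to 5113 CPM in WT cells and from 1703 to 3676 CPM in cells labelled CKO, with medians of 2391 and 2839 and a log2 ratio of 0.16. Atp5h stood at 909 and 766 CPM in sum.

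The c ring of the synthase is encoded by 3 genes whose mature proteins are identical and whose import sequences differ. Per kb, Atp5g3 made up 71.8% of their sum in WT cells and 69.4% in cells labelled CKO. Atp5g2 made up 20.6% and 24.7%, and Atp5g1 7.61% and 5.91%. These shares depend on the transcript taken as length. Over all cells Atp5g3, Atp5g2 and Atp5g1 made up 71.2%, 21.7% and 7.15% by the principal transcript and 59.1%, 23.7% and 17.2% by the exon union. Against all WT cells Atp5g1 had a log2 ratio of -0.35 and Atp5g2 of 0.28. In Xist-pattern cells both were lower in cells labelled CKO, at -0.13 and -0.12, so their order between the genotypes depended on the cells compared. Atp5g2 has near-identical copies in the annotation (at least 95% identity over at least 50% of the transcript), so its counts are uncertain. Such copies exist for 10 members in all, among them Atp5h, Atp5k, Atp5l, Cox7c and Uqcrb.

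**Figure D3:**
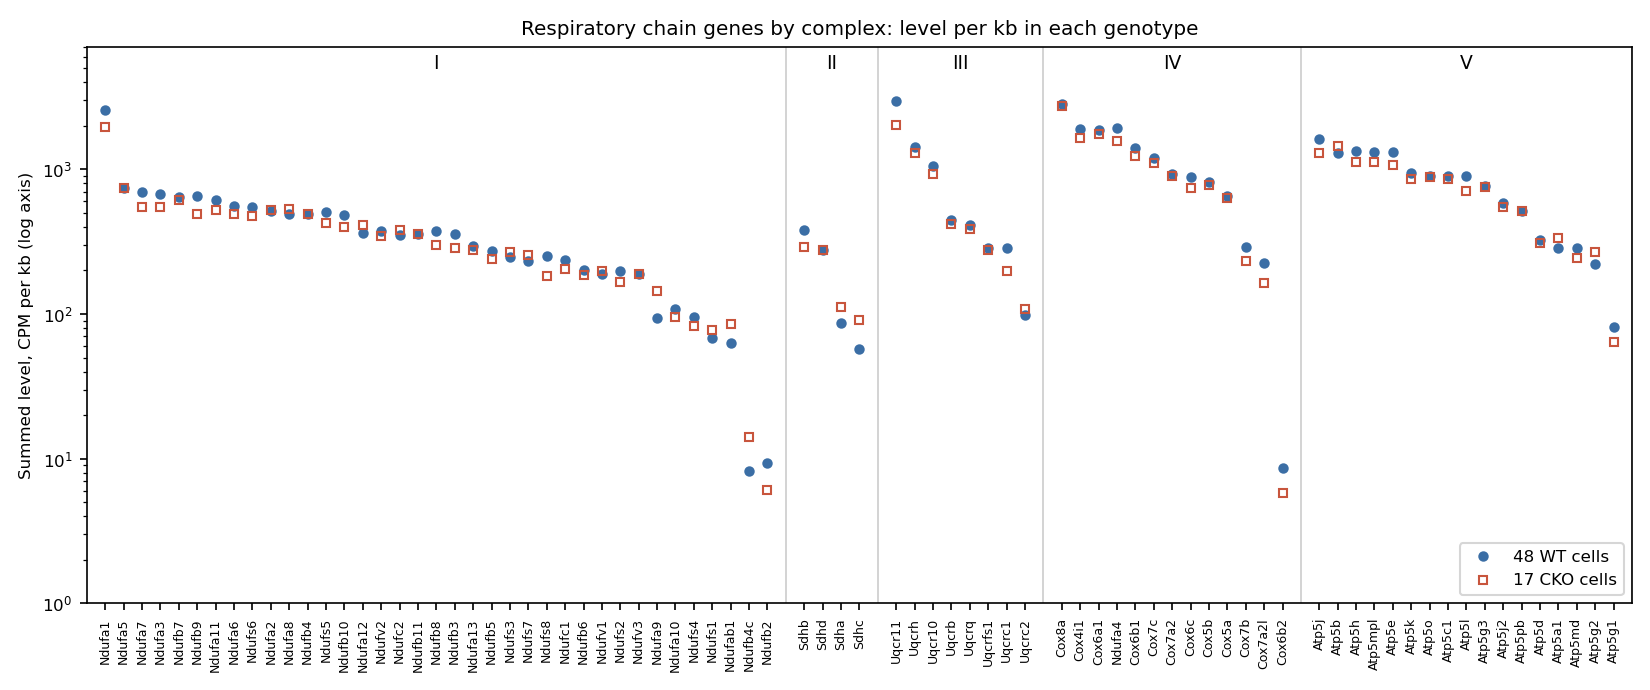
Level of each of the 79 measured members in CPM per kb of principal transcript (log axis), from counts summed over the 48 WT cells (filled circles) and the 17 cells labelled CKO (open squares), ordered within complexes I to V. Cox8a, Uqcr11 and Ndufa1 lead at 2783, 2715 and 2405 CPM per kb over all cells, and the genotypes lie close together beside the range between genes.

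Members varied less from cell to cell than well-counted genes as a whole. Over all 65 cells, the 76 members with at least 100 CPM had a median coefficient of variation of 0.406, against 0.710 for the 1950 genes with at least 100 CPM. Both sets share only this minimum and were not matched for level, whose part was not tested. Over these 76 members the median by complex was 0.348 for V, 0.351 for IV, 0.424 for III, 0.432 for I and 0.590 for II. Core subunits of complex I were more variable, at 0.600 (n = 7 genes), than its accessory subunits, at 0.410 (n = 28 genes). The lowest values were those of Atp5j (0.250), Cox6a1 (0.252) and Cox8a (0.256). Of 4940 combinations of a cell and one of these 76 members, 17 had no count, spread over 13 cells. Cell 4 of those labelled CKO lacked 4 of the members at once, the core subunits Ndufs3, Ndufs7 and Ndufv1 and the accessory subunit Ndufs4, with 6963 genes detected. These names were taken after their values were seen.

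Over all cells together the sums of complexes I, IV and V varied with one another, and that of complex II did not. Spearman correlations of the summed levels over the 65 cells were 0.86 for I with IV, 0.83 for IV with V and 0.72 for I with V, but -0.09 for I with II and 0.02 for II with V. Within cells labelled CKO they were 0.86, 0.82, 0.69, 0.19 and 0.27 (n = 17 cells). Within WT cells 1 to 11 they were 0.65, 0.32, 0.05, -0.19 and 0.70 (n = 11 cells), so there complex V went with complex II rather than with complex I. All of these sums share each cell's library and total. Between single members the median correlation was 0.15 over 3081 pairs, and by complex it was 0.38 within IV, 0.21 within V, 0.12 within I, 0.10 within II and 0.06 within III. The pairs most alike were Atp5md with Ndufa4 (0.76), Atp5h with Cox4i1 (0.72) and Cox7c with Cox8a (0.72), all from complexes IV and V. The members with the lowest median correlation to the rest were Atp5b (-0.10), Atp5a1 (-0.08), the alpha subunit of the synthase, and Sdha (-0.06).

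Long and short transcripts differed in the genotype comparison. Of 36 measured members with a principal transcript under 800 bases, 33 were lower in cells labelled CKO, with a median log2 ratio of -0.21. Of 23 members of 800 to 1500 bases 16 were lower (median -0.07), and of 19 over 1500 bases 11 were (median -0.01). The Spearman correlation of the log2 ratio with length was 0.34 over 78 members. Over the 9693 measured genes with a length it was -0.03, and 189 of the 314 genes under 800 bases were lower, with a median of -0.12. The correlation over members was 0.40 against WT cells 1 to 11, 0.31 against cells 12 to 45 and -0.02 against cells 46 to 48. In complex IV, 10 of the 13 measured members are under 800 bases, and in complex II none of the 4 is. Complexes I, III and V hold both kinds, with 15, 4 and 7 members under 800 bases and 9, 3 and 5 over 1500. The part of length in the order of the complexes was not tested. The ratio of the summed short to the summed long members was at a median of 2.23 in WT cells (1.40 to 3.85) and 1.78 in cells labelled CKO (1.27 to 2.60).

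**Figure D4:**
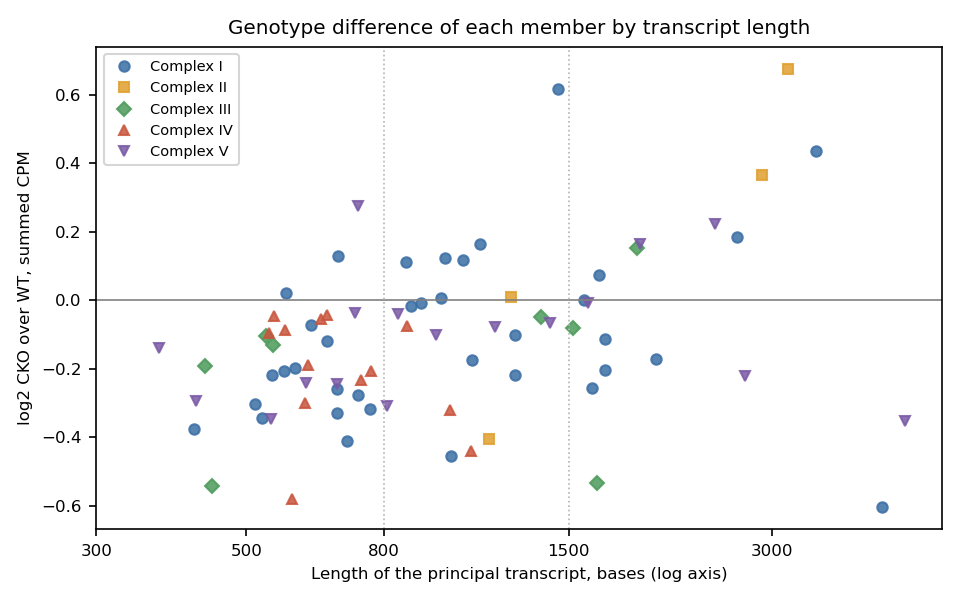
log2 ratio of CKO over WT (all WT cells) against the length of the principal transcript (log axis) for 78 measured members, by complex, with dotted lines at 800 and 1500 bases. Under 800 bases 33 of 36 members lie below 0, and over 1500 bases 11 of 19 do.

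The mitochondrially encoded subunits, which join the nuclear-encoded ones in complexes I, III, IV and V, were lower in cells labelled CKO than in all WT cells together, but not than in each run. Against all WT cells the 12 measured genes were all lower, 2 of them by at least 1.5-fold (background 23.3%), with a median log2 ratio of -0.48. Against WT cells 1 to 11, 7 were lower and 5 higher (median -0.17), against cells 12 to 45 all 12 were lower (median -0.69), and against cells 46 to 48 only 3 were lower and 9 higher (median 0.11). In Xist-pattern cells 7 were lower and 5 higher, with a median of -0.13. Their sum was 54904 CPM in WT and 39939 CPM in cells labelled CKO. Against all WT cells the largest differences were those of mt-Co2, a core subunit of complex IV (247 and 148 CPM), mt-Nd2 (3613 and 2277 CPM) and mt-Nd1 (11859 and 7973 CPM), both membrane subunits of complex I. In the runs of WT cells mt-Co2 stood at 58.1, 343 and 107 CPM, so cells labelled CKO were above the first and the last run. The ratio of mitochondrial to nuclear subunit counts in a cell had a median of 1.37 in WT cells (0.960 to 2.07) and 1.06 in cells labelled CKO (0.651 to 2.22). It was 1.16 in WT cells 1 to 11, 1.43 in cells 12 to 45 and 1.17 in cells 46 to 48. The runs had been drawn from a mitochondrially encoded gene that enters this ratio. Differences between runs in these genes and in the ratio may follow from that choice, so the values by run are a description. Nuclear and mitochondrial sums had a Spearman correlation of 0.50 over all cells (n = 65), 0.56 within WT (n = 48) and 0.34 within cells labelled CKO (n = 17), which share library and total.

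**Figure D5:**
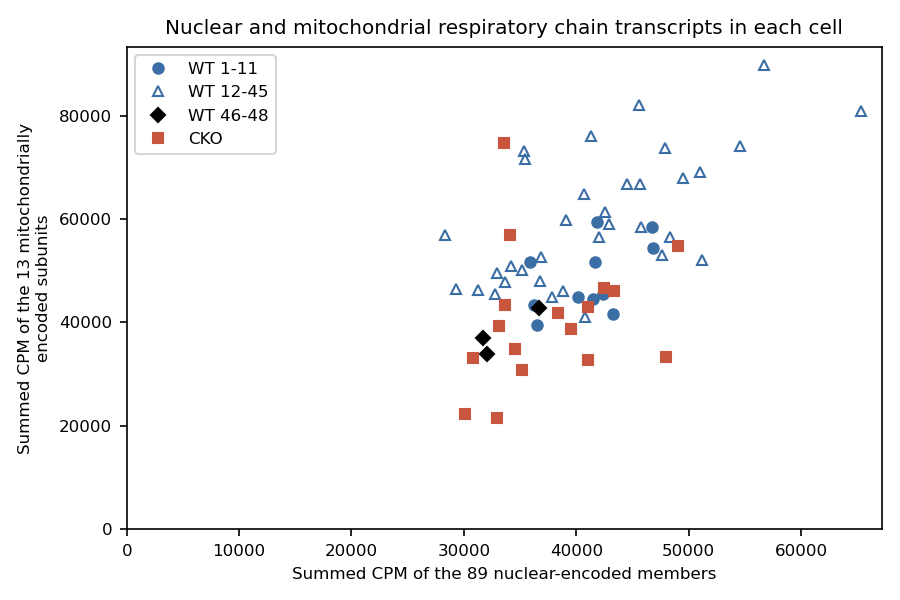
Summed CPM of the 13 mitochondrially encoded subunits against that of the 89 nuclear-encoded members in each of the 65 cells. Medians are 41050 and 35137 CPM on the horizontal axis and 52848 and 39288 CPM on the vertical axis for WT and cells labelled CKO, and the 3 WT cells numbered 46 to 48 (black diamonds) lie among the cells labelled CKO.

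Genes that build the complexes were close to evenly divided. Of 51 measured assembly factors 28 were higher and 23 lower in cells labelled CKO, 8 and 6 of them past 1.5-fold, with a median log2 ratio of 0.09. These counts lie near or below the backgrounds of 50.4% higher, 49.6% lower, and 24.7% and 23.3% past 1.5-fold. For complex I, Ndufaf8 was at 68.5 and 34.1 CPM, with a WT cell higher in 77.9% of pairs, Ndufaf3 at 68.3 and 35.02 CPM, and Ndufaf2 at 12.3 and 32.9 CPM. For complex II, Sdhaf3 was at 35.9 and 16.97 CPM. For complex III, Ttc19, which removes fragments of the Rieske protein, was lower in WT, at 115 against 206 CPM, and a cell labelled CKO was ahead in 73.7% of pairs. Ttc19 was at 223 CPM in WT cells 46 to 48. Lyrm7, the chaperone of the Rieske protein, was counted in 2 WT and 6 cells labelled CKO only. For complex V, Tmem70, which helps form the c ring, stood at 144 and 228 CPM and was higher in cells labelled CKO in 68.0% of pairs. For complex IV the largest ratios were those of Sco1, Coa4 and Coa7, each with counts in fewer than 15 WT and at most 3 cells labelled CKO.

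Among the 5 electron carriers, 2 were higher and 3 lower and none was past 1.5-fold. Cyc1 stood at 355 and 329 CPM and cytochrome c, Cycs, at 694 and 691 CPM. Of 10 measured regulators of mitochondrial biogenesis 3 were higher and 7 lower, 2 and 3 past 1.5-fold, near the background of 24.7% and 23.3% for so few genes. Tfam, which packages and transcribes mitochondrial DNA, stood at 44.5 and 16.1 CPM, but WT cells 1 to 11 were at 81.6 CPM and cells 12 to 45 at 29.4 CPM. Polrmt, the mitochondrial RNA polymerase, was at 1.23 and 14.99 CPM with counts in 8 WT and 7 cells labelled CKO, and Esrra at 22.9 and 10.1 CPM. Of 16 genes of the outer membrane, of import and of inner membrane structure 8 were higher and 8 lower, 1 and 2 past 1.5-fold, below the same background. Phb, a scaffold of the inner membrane in that list, stood at 86.0 and 154 CPM and was higher in cells labelled CKO in 75.4% of pairs. Timm44, part of the import motor, was at 57.4 and 28.9 CPM and Mfn2, a fusion protein, at 28.7 and 16.8 CPM.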

How the data were processed

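The deposited table holds counts of reads for every gene and cell. The submitters' processing notes list the mm10 build and 3 tools the authors used, featureCounts 2.0.1, HISAT2 2.2.1 and StringTie 2.2.1. For strand setting and annotation, the sources used here say nothing. For 28 members, exons overlap those of a gene on the opposite strand, and such reads cannot be told apart. No 2 cells held identical columns, no cell was removed, and no doublet caller was run, since cells were picked singly.

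Each genotype's counts were added up over its cells and divided by their total (CPM, per 1000000 counts). Intervals on ratios are exact conditional ones at 95% and cover nothing but counting error, since the reads carry no molecular identifiers and the animals are unknown. For the 76 members of at least 100 CPM they are at most 0.04 wide on the log2 scale. Pair shares count ties as 0.5. Levels per kb use the principal transcript of GENCODE release M21 (GRCm38), to which 87 members matched by symbol and 2 through a RefSeq synonym. Copies were found with blastn 2.17.0+. The steps were tested on simulated counts with the same dispersion for every gene and no runs of WT cells. That checks the code and not how the cutoffs behave on these cells. Python 3.11.15, pandas 2.3.3, scipy 1.17.1, R 4.3.3, edgeR 4.0.16 and DESeq2 1.42.0 were used, the last 2 for scaling factors only.

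The members and all lists were chosen with earlier results of these data known. Named were the 3 members per complex with the highest CPM per kb, all isoforms with their partners, members past 1.5-fold on the same side in 65% of pairs, Uqcrc1 and Ndufa9, up to 3 genes per further list by size of ratio, and the most and least alike members. Other names (Sdhc, Ndufb2, Ndufab1, Ndufb4, Ndufs8, Ndufs1, Uqcrc2, Cycs, those missing in cell 4 of those labelled CKO, and the genes of the closing section) were taken after their values were seen. Alternatives were other scalings, per-cell means and medians, other minimum levels, parts of the cells, thinning to 7458126 counts per cell, and leaving out each cell.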

Additional observations from a re-analysis of the deposited data

How the results depend on the processing

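No paired analysis was possible because the labels give the cells numbers only, with no animal or litter behind them. The direction of the median over members and of the summed level held under every alternative except WT cells 46 to 48 alone, where the sum was at 0.16 and the medians at 0.20 (all), 0.21 (I), 0.34 (III), 0.16 (IV) and 0.21 (V); 10 members were then at least 1.5-fold higher and 3 lower. The cause was not tested, and 3 cells are few. The log2 ratio of the summed level was -0.15 with TMM factors, -0.075 with DESeq2 size factors, -0.15 without mitochondrially encoded and ribosomal protein genes in the total, -0.13 as a mean and -0.10 as a median over cells, -0.13 thinned, -0.18 in Xist-pattern cells, -0.15 against WT cells 1 to 11 and -0.13 against cells 12 to 45. Among alternatives chosen after seeing the data, which also take in the members with no copy or overlap, it was -0.10 in cells with at least 6000 genes and -0.13 without WT cells 46 to 48; leaving out members annotated as pseudogenes or moving Ndufa4 to complex I changed no sign. Members past 1.5-fold lower numbered 2 with TMM, with the reduced total, as a mean, as a median, thinned and without WT cells 46 to 48, 0 with DESeq2 factors and among members with no copy or overlap, 3 with no minimum and against cells 12 to 45, and 5 in Xist-pattern cells. Members past it higher numbered 1 as a median, against cells 12 to 45 and without copies or overlaps, and 5 in Xist-pattern cells. The median of complex II was -0.01 as a median over cells. Leaving out each cell in turn gave sums of -0.14 to -0.10, 2 to 3 members higher and 0 to 2 lower. The count lower was 0 without WT cell 22 or without the cells labelled CKO numbered 2, 6, 7, 11, 13 or 16, and 2 in 41 of the 65 cases, since Ndufb2 and Cox6b2 lie near 1.5-fold.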

Other observations

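Several rows dropped as pseudogenes carried counts in every cell. Ndufb1-ps stood at 229 CPM in WT and 237 CPM in cells labelled CKO, from 88.2 to 449 CPM and from 83.7 to 510.4 CPM in single cells; no row without the ending carries the name of this subunit of complex I. Ndufs5-ps was at 13.7 CPM in WT and 47.8 CPM in cells labelled CKO. It ran from 4.69 to 29.6 CPM over WT cells and from 9.32 to 142 CPM over cells labelled CKO, and it was between 11.3 and 14.98 CPM in all 3 runs of WT cells. Its parent Ndufs5, an accessory subunit of complex I, went the other way, at 346 and 289 CPM. Cox5b-ps was at 39.3 and 15.5 CPM, with a WT cell higher in 84.1% of pairs, while Cox5b, which binds zinc in complex IV, stood at 706 and 670 CPM. Ndufa12-ps differed most between runs, with 3.58 CPM in WT cells 1 to 11 and 42.6 and 74.9 CPM in the later runs, beside 54.6 CPM in cells labelled CKO.

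Levels of a gene with copies elsewhere also differed between the runs of WT cells. Uqcrb, a small subunit of complex III, reached 133 CPM in the first run, 295 CPM in cells 12 to 45 and 164 CPM in the last 3 cells, beside 223 CPM in cells labelled CKO.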
